A study of Mus musculus with 9 samples.

Results

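Genes of cell junctions and cell polarity were described in the luminal epithelium of the mouse uterus, the layer to which an embryo attaches, across 9 RNA-seq libraries. The 77 members were the gene symbols of the deposited table that name claudins, zonula occludens and other tight junction proteins, cadherins (without Cdh1 and Cdh5), catenins, nectins, desmosomal proteins, connexins or PAR, Crumbs and Scribble complex proteins, out of 15158 symbols in all. The rule for them uses names and no measured values, but it was set with earlier results of these data known. There were 27 tight junction, 18 adherens junction, 12 desmosome, 10 gap junction and 10 polarity genes. Of the 77, 54 reached 1 FPKM, the count of fragments scaled to gene length and library size, in at least 3 libraries and were tested.

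Tissue was taken by laser capture on day 4 of pregnancy from mated females that had been kept with female littermates to the age of 8 weeks. The ePRBoe mice were Wnt7acre/+PgrBLsL/+ and the ePRAoe mice Wnt7acre/+PgrALsL/+, with a cre-activated allele for isoform B or isoform A of Pgr, the progesterone receptor, and the control mice were Wnt7acre, so that every group carried the cre. Each group had 3 libraries, numbered as bioreplicates, and the labels do not say whether animals were pooled or which cells the Wnt7a-driven cre reached. The p-values therefore describe the spread among these libraries, which may be technical in part.

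Tight junctions seal neighbouring epithelial cells near their apical edge. Claudins set which ions pass, and zonula occludens proteins tie the strands to actin. Adherens junctions and desmosomes hold the cells together below them, through cadherins linked by catenins to actin and by plakoglobin, plakophilins and desmoplakin to keratin. Gap junctions are channels of connexins that pass small molecules between cells, and the PAR, Crumbs and Scribble complexes set the apical and basolateral sides. In rodents the luminal epithelium is known to remodel its junctions and to lose some of its polarity around implantation.

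Library sums were 272213 to 314010 FPKM, and 11074 to 12300 genes per library reached 1 FPKM. Pgr, the gene overexpressed by design, had 38.1 to 45.9 FPKM in ePRBoe, 41.7 to 49.5 FPKM in ePRAoe and 3.82 to 17.4 FPKM in Wnt7acre libraries. The 3 sequencing runs named in the labels were unevenly filled. All ePRBoe libraries shared a run with ePRAoe replicate 2 and Wnt7acre replicate 3 (run 1), and each of the other runs held 1 ePRAoe and 1 Wnt7acre library. The 16 luminal epithelium markers summed to 2114 to 2356 FPKM in ePRBoe, 1751 to 2453 FPKM in ePRAoe and 2260 to 2514 FPKM in Wnt7acre libraries, with none at 0, and 1 rose and 2 fell in ePRBoe and 3 rose and 5 fell in ePRAoe. Cldn3 and Cldn7 are among these markers and are also members, so this sum is not independent of the genes described. The 14 stroma markers summed to 414 to 556 FPKM in ePRBoe, 230 to 395 FPKM in ePRAoe and 98.1 to 130.4 FPKM in Wnt7acre libraries, also with none at 0, and 12 of them rose in ePRBoe and 9 in ePRAoe against Wnt7acre while 0 fell. In bulk tissue, more cells of a type and more RNA per cell cannot be told apart.

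Fold changes are differences of log2(FPKM + 1) from limma over all 9 libraries with a term for the run, a scale that understates the change of low genes. The first number in a parenthesis is the log2 fold change, left-out libraries are followed by that and the adjusted p or by the adjusted p alone, and means are given ± SD over 3 libraries. With the run term, leaving out either library of a run that held only 1 ePRAoe and 1 Wnt7acre library gives nearly the same fit. These pairs are ePRAoe replicate 1 with Wnt7acre replicate 1, and ePRAoe replicate 3 with Wnt7acre replicate 2. For ePRAoe against Wnt7acre the same holds of ePRAoe replicate 2 with Wnt7acre replicate 3. The results of such a pair are therefore not independent. A gene was called at an adjusted p under 0.05 over the 12347 genes tested. In ePRBoe against Wnt7acre 6 of the 54 tested members (11.1%) were called, against 8.89% of all genes, 4 of them higher (6.41% of all genes) and 2 lower (2.48%). In ePRAoe against Wnt7acre 12 of 54 (22.2%) were called, against 16.2% of all genes, 5 of them higher (7.20%) and 7 lower (8.98%). Both comparisons use the same control libraries. The members' median log2 fold change was -0.06 in ePRBoe and -0.26 in ePRAoe, beside 0.10 and -0.03 over all genes tested. Libraries did not overlap with the controls for 30 members in ePRBoe (39.8% of all genes), with 12 higher (23.5%) and 18 lower (16.3%), and for 23 members in ePRAoe (28.9%), with 9 higher (12.6%) and 14 lower (16.2%). Overlap was judged on FPKM without the run term, here and below.

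**Figure D1:**
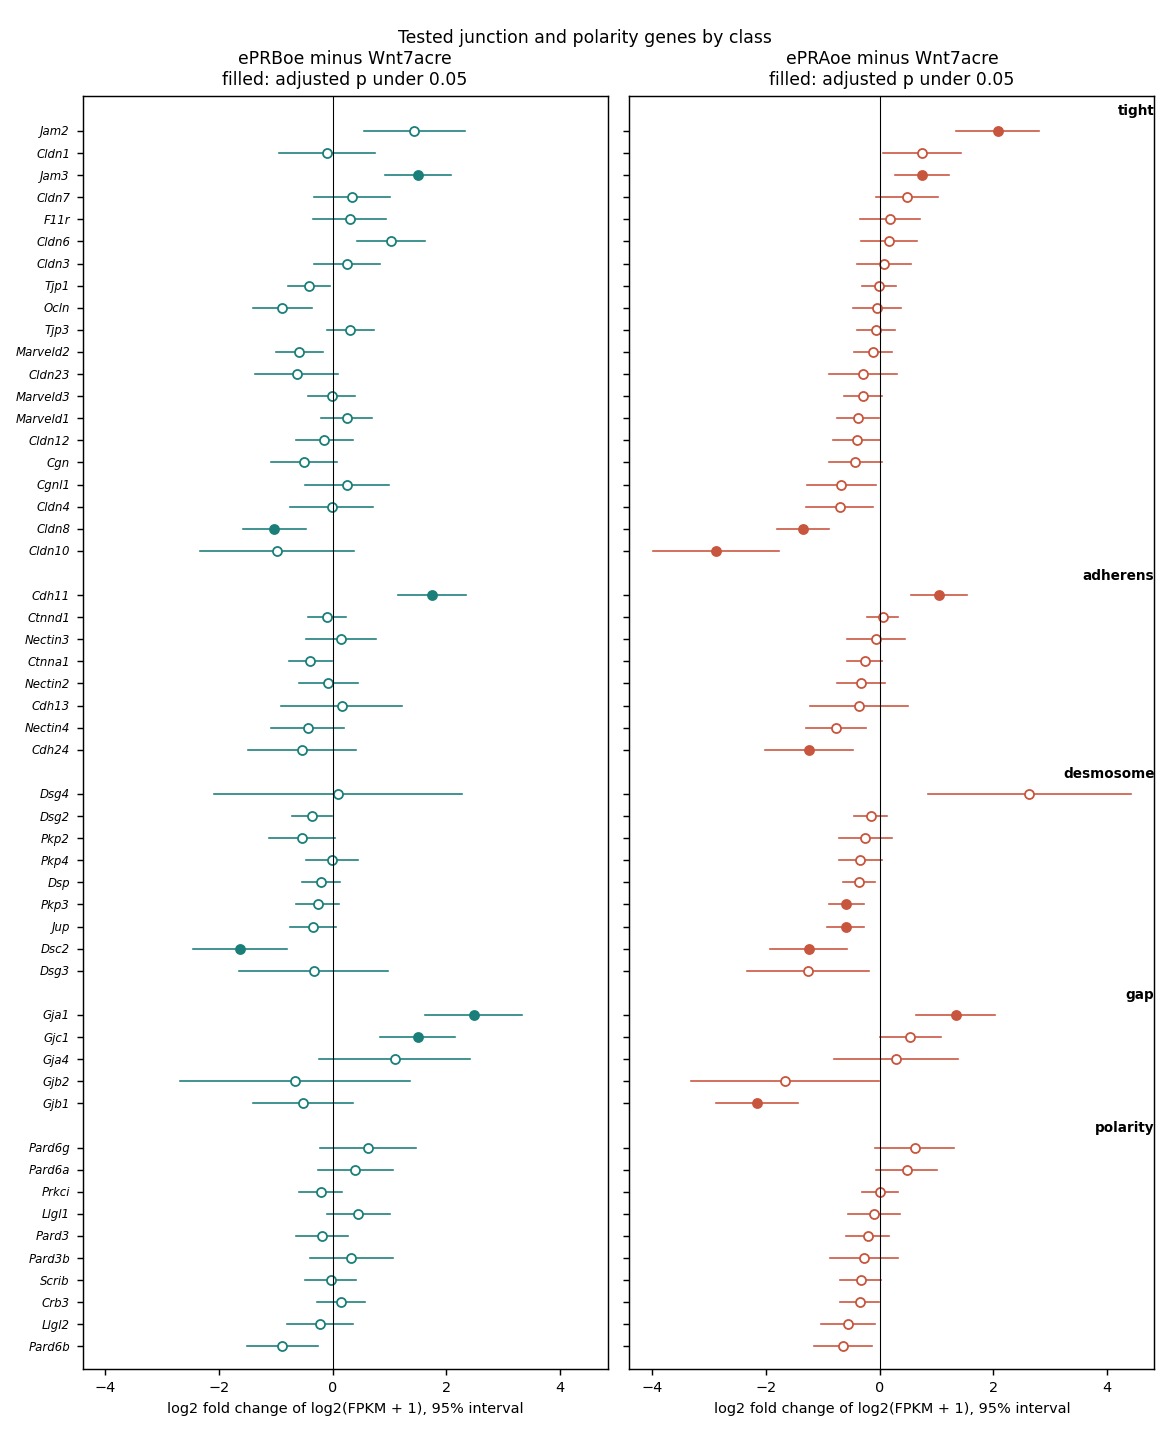
Log2 fold changes of 52 tested members by junction class (points), with 95% intervals (bars), for ePRBoe minus Wnt7acre at the left and ePRAoe minus Wnt7acre at the right, on the same axis. Filled points passed an adjusted p of 0.05: 6 at the left, 11 at the right, and none among the polarity genes.

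Called in at least 1 comparison were 13 genes, of which 12 are described. Jam2, Jam3, Cldn8 and Cldn10 belong to tight junctions, Cdh11 and Cdh24 are cadherins of the adherens class, Dsc2, Jup and Pkp3 belong to desmosomes, and Gja1, Gjb1 and Gjc1 are connexins. Of these, Cdh11, Gja1 and Jam3 rose and Cldn8 and Dsc2 fell in both overexpressing genotypes.

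**Figure D2:**
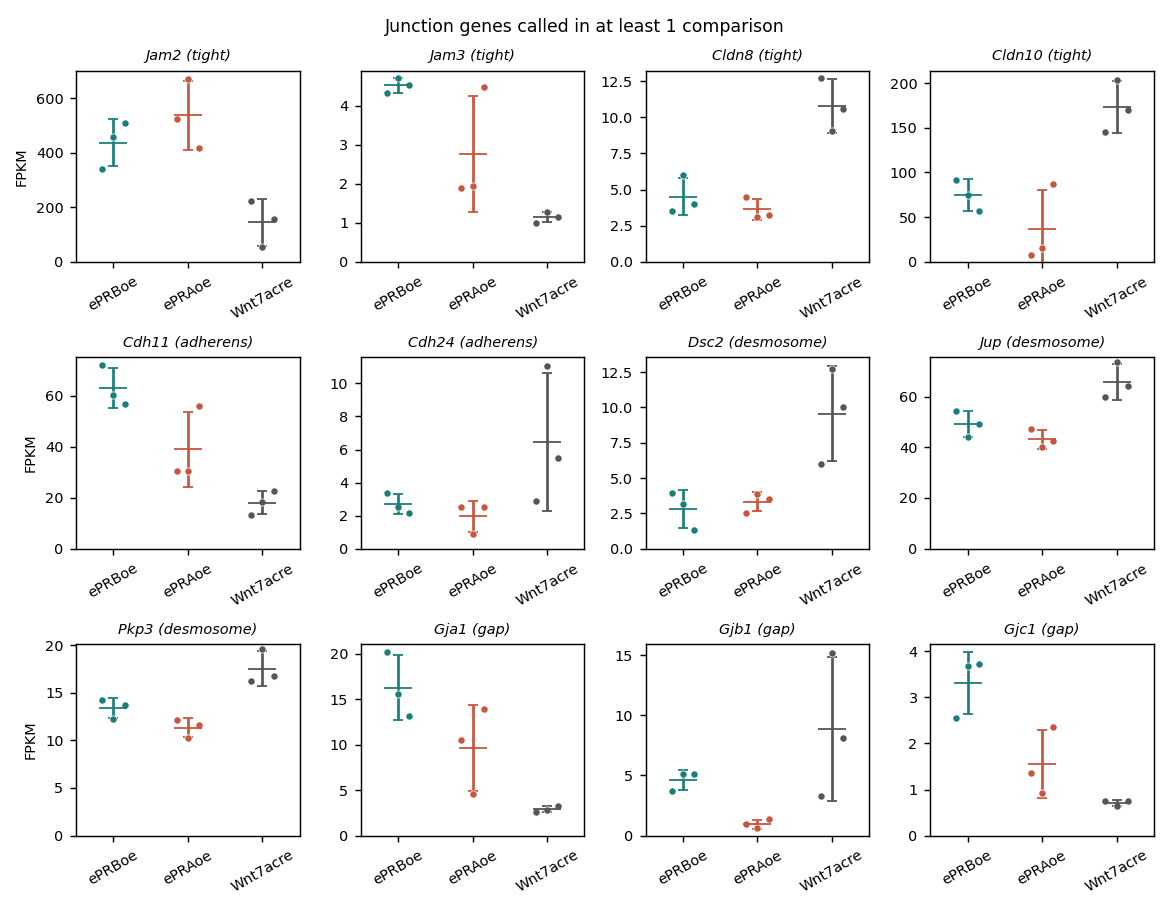
FPKM of 12 called members in each library (points), with the mean and SD of 3 libraries (bars, cut at 0 for Cldn10 in ePRAoe), on linear axes that start at 0 and differ between panels. Cldn8, Cldn10, Dsc2, Jup and Pkp3 lie below all 3 Wnt7acre libraries in every ePRBoe and ePRAoe library, and Jam2, Jam3, Cdh11, Gja1 and Gjc1 lie above them.

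Among tight junction genes, Jam2 stood far above its control level in ePRAoe, and Cldn10 and Cldn8 stood far below theirs. Of 21 tested tight junction genes, 1 rose and 1 fell in ePRBoe (9.52%, against 8.89% of all genes). In ePRAoe 3 rose and 2 fell (23.8%, against 16.2%). The class median was -0.02 in ePRBoe and -0.07 in ePRAoe on the log2 scale. The summed level of the 27 genes was 1689 ± 81.4 FPKM in ePRBoe, 1760 ± 269 FPKM in ePRAoe and 1438 ± 87.5 FPKM in Wnt7acre (SD, n = 3 each).

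Claudins form the strands of the tight junction. Their transcripts summed to 945 ± 51.98 FPKM in ePRBoe, 890.4 ± 106 FPKM in ePRAoe and 969 ± 90.4 FPKM in Wnt7acre (SD, n = 3 each), so that the group means differed by less than the SD of ePRAoe. Cldn3, a barrier-forming claudin, was the highest claudin in every library. Cldn3 had 514, 498 and 598 FPKM in the ePRBoe libraries, 566, 537 and 358 FPKM in the ePRAoe libraries and 496, 463 and 399.5 FPKM in the Wnt7acre libraries. The ePRBoe libraries lay above the controls by a narrow gap, and neither genotype passed (ePRBoe 0.25, 95% interval -0.33 to 0.83, adjusted p = 0.583, and ePRAoe 0.08, 95% interval -0.39 to 0.56, adjusted p = 0.823). Cldn7, found along the lateral membrane as well as at the junction, came second in most libraries. Cldn7 had 192, 159 and 173 FPKM in the ePRBoe libraries, 161, 251 and 167 FPKM in the ePRAoe libraries and 156, 149 and 105 FPKM in the Wnt7acre libraries. Every overexpressing library exceeded the 3 Wnt7acre libraries, without a call (ePRBoe 0.34, adjusted p = 0.516, and ePRAoe 0.48, adjusted p = 0.209). Cldn23 averaged 77.03 ± 21.4 FPKM in ePRBoe, 95.6 ± 25.4 FPKM in ePRAoe and 115 ± 15.4 FPKM in Wnt7acre and was not called.

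Cldn10 had the most negative fold change of all tested members in ePRAoe. The gene is known to be read from alternative first exons into claudins that favour cations or anions, which FPKM per gene do not separate. Cldn10 had 91.8, 75.2 and 56.5 FPKM in the ePRBoe libraries, 7.68, 15.9 and 87.2 FPKM in the ePRAoe libraries and 145, 203 and 170.4 FPKM in the Wnt7acre libraries (ENSMUSG00000022132.15, chromosome 14, 118787908 to 118875489, forward strand, mm10). All 6 overexpressing libraries lay below the Wnt7acre libraries, and ePRAoe replicate 3 stood apart from its group, within the range of ePRBoe. The gene fell in ePRAoe (log2 fold change -2.88, SE 0.47, adjusted p = 0.00828), with -3.34, -1.21 and -4.08 within the 3 runs. ePRBoe missed the threshold (-0.98, 95% interval -2.33 to 0.37, adjusted p = 0.34). Of the claudin FPKM, Cldn10 made up 9.38%, 8.498% and 5.82% in the ePRBoe libraries, 0.836%, 1.63% and 11.3% in the ePRAoe libraries and 14.9%, 19.3% and 19.5% in the Wnt7acre libraries. The ePRAoe call was lost without ePRAoe replicate 2 (-2.64, adjusted p = 0.0621) or Wnt7acre replicate 3 (-2.64, 0.0615), and ePRBoe passed without ePRAoe replicate 3 (-1.39, 0.0385) or Wnt7acre replicate 2 (-1.39, 0.0379).

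The promoters of Cldn10 show the alternative starts, to which a value per gene cannot be assigned. Sequences are from RefSeq (GRCm38.p6, the assembly of mm10) and run from 250 bases before to 50 after each start. They were searched on both strands for AGAACA, the half-site of steroid receptor elements, and for ACANNNTGT, the inner part of the palindromic element, which can overlap it. The fixed letters of a match are in capitals. The first promoter lies at chr14:118787621-118787920 and the second at chr14:118854700-118854999, both on the forward strand.
Cldn10 first start: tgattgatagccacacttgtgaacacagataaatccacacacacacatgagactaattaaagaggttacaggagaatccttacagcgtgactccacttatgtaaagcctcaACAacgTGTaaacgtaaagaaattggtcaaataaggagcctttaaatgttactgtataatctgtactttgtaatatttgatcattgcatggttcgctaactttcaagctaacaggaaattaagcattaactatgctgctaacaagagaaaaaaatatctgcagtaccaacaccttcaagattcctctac
Cldn10 second start: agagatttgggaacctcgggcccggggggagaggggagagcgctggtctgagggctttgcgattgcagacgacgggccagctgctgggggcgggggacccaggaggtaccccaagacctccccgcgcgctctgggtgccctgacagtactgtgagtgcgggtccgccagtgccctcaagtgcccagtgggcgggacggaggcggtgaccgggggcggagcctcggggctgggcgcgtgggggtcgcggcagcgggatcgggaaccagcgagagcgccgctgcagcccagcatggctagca
The first holds 1 match to ACANNNTGT, which 6.85% of 32851 mouse promoters of this length hold, and the second holds neither motif. Of the members, 47 had promoters in the table, and 7 of these 64 promoters (10.9%) held AGAACA, against 19.0% of all promoters.

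Cldn8, which seals paracellular routes in kidney tubules, fell in both genotypes. Cldn8 had 3.54, 5.997 and 3.997 FPKM in the ePRBoe libraries, 4.48, 3.13 and 3.26 FPKM in the ePRAoe libraries and 12.7, 9.03 and 10.6 FPKM in the Wnt7acre libraries (ENSMUSG00000050520.4, chromosome 16, 88560828 to 88563183, reverse strand, mm10). Groups did not overlap in either comparison with the controls. The fall passed in ePRBoe (log2 fold change -1.03, SE 0.24, adjusted p = 0.0397, and -1.10 within run 1) and in ePRAoe (log2 fold change -1.35, SE 0.20, adjusted p = 0.00542, and -1.49, -1.24 and -1.32 within the 3 runs). In ePRAoe it passed with any 1 library left out. The ePRBoe call was lost without ePRBoe replicate 1 or ePRBoe replicate 3, ePRAoe replicate 2 or ePRAoe replicate 3, or Wnt7acre replicate 2 or Wnt7acre replicate 3 (adjusted p = 0.0592 to 0.276). It was also lost with no filter on low values (0.0529) and with a mean of at least 5 FPKM (0.0516).

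**Figure D3:**
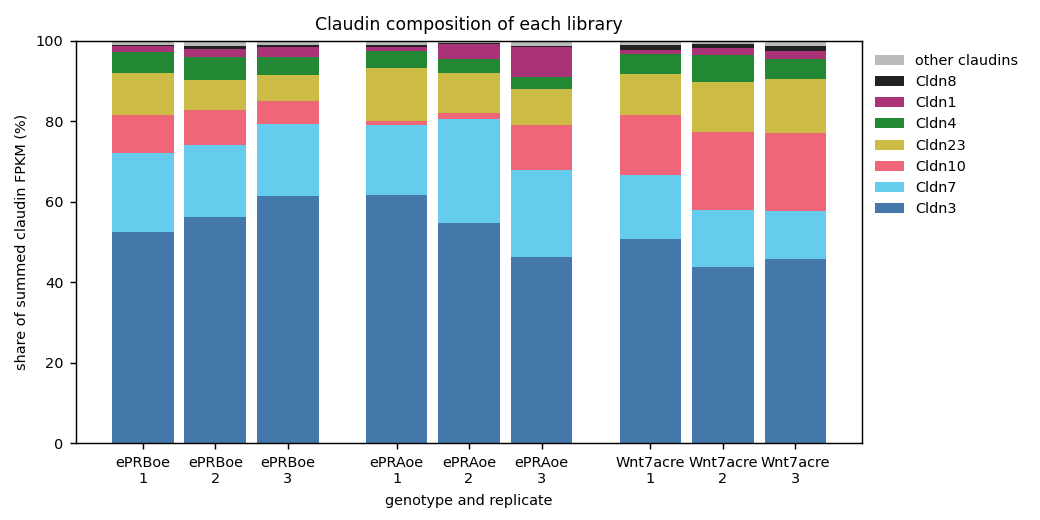
Share of the summed claudin FPKM taken by each claudin in the 9 libraries, as stacked bars that add up to 100%. Cldn10 takes 5.82% to 9.38% in the ePRBoe and 0.836% to 11.3% in the ePRAoe libraries, against 14.9% to 19.5% in the Wnt7acre libraries, and Cldn3 takes the largest share in all 9.

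Of the other claudins, Cldn1, needed for the barrier of the skin, averaged 18.8 ± 5.56 FPKM in ePRBoe, 33.5 ± 23.2 FPKM in ePRAoe and 16.4 ± 5.87 FPKM in Wnt7acre. It was not called in ePRAoe (0.75, adjusted p = 0.127) and passed there without ePRAoe replicate 1 (1.13, 0.0339) or Wnt7acre replicate 1 (1.13, 0.0338). Cldn4 had 52.9, 49.6 and 43.9 FPKM in the ePRBoe libraries, 40.1, 34.9 and 23 FPKM in the ePRAoe libraries and 48.1, 70.8 and 42.4 FPKM in the Wnt7acre libraries. The ePRAoe libraries of Cldn4 were the lowest, without a call (-0.70, adjusted p = 0.103). Cldn6 had 1.26, 1.06 and 1.01 FPKM in the ePRBoe libraries, 0, 0.101 and 0.505 FPKM in the ePRAoe libraries and 0.05, 0 and 0.101 FPKM in the Wnt7acre libraries. Values of Cldn6 fell on multiples of 0.0505 FPKM, so that the Wnt7acre libraries hold very few reads of it, and ePRBoe missed the threshold (1.02, adjusted p = 0.0514). Cldn12 lay below the controls in every library of both genotypes and was not called. Cldn2, Cldn5, Cldn15, Cldn19, Cldn22 and Cldn34c1 were not tested. Their highest values ran from 0.458 FPKM (Cldn34c1) to 1.68 FPKM (Cldn22), and Cldn22 lies wholly within exons of another gene on the opposite strand.

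Junctional adhesion molecules are immunoglobulin-type proteins at the tight junction, of which F11r is the usual epithelial one and Jam2 and Jam3 are best known from endothelium. Jam2 had 342, 458 and 509.5 FPKM in the ePRBoe libraries, 524, 671 and 418 FPKM in the ePRAoe libraries and 224, 53.8 and 158 FPKM in the Wnt7acre libraries (ENSMUSG00000053062.16, chromosome 16, 84774123 to 84825928, forward strand, mm10). The lowest overexpressing library exceeded the highest control, and Wnt7acre replicate 2 was the lowest of all. Jam2 rose in ePRAoe (log2 fold change 2.08, SE 0.31, adjusted p = 0.00619, 4.22-fold), with 2.07, 2.93 and 1.22 within the 3 runs, and kept that call with any 1 library left out. ePRBoe missed the threshold (1.44, 95% interval 0.54 to 2.33, adjusted p = 0.0591) and passed without ePRAoe replicate 1 (1.65, 0.019) or Wnt7acre replicate 1 (1.65, 0.0193), or without the run term (0.0304). By mean FPKM, Jam2 ranked behind Cldn3 alone among the members in ePRBoe and ahead of every member in ePRAoe, whereas in Wnt7acre it ranked behind Cldn3 and Cldn10.

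Jam3 had 4.32, 4.71 and 4.51 FPKM in the ePRBoe libraries, 1.89, 1.93 and 4.48 FPKM in the ePRAoe libraries and 1.003, 1.27 and 1.16 FPKM in the Wnt7acre libraries. Of the ePRAoe libraries, replicate 3 alone reached the ePRBoe level, and the controls lay below both genotypes. Jam3 rose in ePRBoe (log2 fold change 1.51, SE 0.25, adjusted p = 0.0137, and 1.35 within run 1) and in ePRAoe (log2 fold change 0.75, SE 0.20, adjusted p = 0.0453, and 0.44, 1.27 and 0.53 within the runs). An antisense gene, Gm48796, shares 36.2% of the exonic length of Jam3, and without a stated strand setting their reads cannot be told apart. The ePRBoe call was lost without ePRBoe replicate 2 (0.0518), ePRAoe replicate 2 (0.0596) or Wnt7acre replicate 3 (0.0743), and the ePRAoe call without any 1 of the ePRBoe libraries or without replicate 2 or 3 of ePRAoe or of Wnt7acre (0.0773 to 0.177). The ePRAoe call of Jam3 was also lost with no filter on low values (0.0583) and without the run term (0.0821). F11r averaged 84.04 ± 7.73 FPKM in ePRBoe, 77.2 ± 24.96 FPKM in ePRAoe and 65.7 ± 6.63 FPKM in Wnt7acre and was not called.

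Several tight junction genes were lowest in ePRBoe. Ocln encodes occludin, a membrane protein of the strands. Ocln had 26.2, 24.5 and 24.9 FPKM in the ePRBoe libraries, 28.4, 56.2 and 33.1 FPKM in the ePRAoe libraries and 38.02, 39.7 and 38.6 FPKM in the Wnt7acre libraries. The ePRBoe libraries lay below the controls and missed the threshold (-0.89, adjusted p = 0.0517), and the ePRAoe libraries lay on both sides. Tjp1 (ZO-1) is a scaffold that ties the strands to actin. Tjp1 had 59.02, 53.2 and 57.3 FPKM in the ePRBoe libraries, 67.2, 80.2 and 68.9 FPKM in the ePRAoe libraries and 64.7, 80.97 and 71.4 FPKM in the Wnt7acre libraries. Tjp1 was lower in each ePRBoe library than in each control, without a call (-0.42, adjusted p = 0.145). Marveld2 (tricellulin, of the corners between cells) averaged 23.6 ± 2.96 FPKM in ePRBoe, 31.8 ± 3.72 FPKM in ePRAoe and 34.4 ± 1.301 FPKM in Wnt7acre and likewise had no call (-0.59, adjusted p = 0.0825 in ePRBoe). Cgn, a scaffold that binds zonula occludens proteins, averaged 15.1 ± 2.82 FPKM in ePRBoe, 15.6 ± 2.44 FPKM in ePRAoe and 21.3 ± 3.498 FPKM in Wnt7acre and was below the controls in every library of both genotypes. Cgn, Cgnl1, Marveld1, Marveld3 and Tjp3 (ZO-3) were not called in any comparison.

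In the adherens class, a mesenchymal cadherin rose while catenins and nectins had no call. Of 8 tested genes, 1 rose and 0 fell in ePRBoe (12.5%, against 8.89% of all genes). In ePRAoe 1 rose and 1 fell (25%, against 16.2%). The median log2 fold change was -0.09 in ePRBoe and -0.29 in ePRAoe. Cdh11 is known from mesenchymal cells. Cdh11 had 72.02, 60.2 and 56.8 FPKM in the ePRBoe libraries, 30.4, 30.6 and 55.96 FPKM in the ePRAoe libraries and 13.4, 18.4 and 22.5 FPKM in the Wnt7acre libraries (ENSMUSG00000031673.6, chromosome 8, 102632095 to 102785642, reverse strand, mm10). The controls were lowest and ePRBoe highest, with no overlap between any pair of groups. Cdh11 rose in ePRBoe (log2 fold change 1.74, SE 0.26, adjusted p = 0.0103, 3.35-fold, and 1.44 within run 1) and in ePRAoe (log2 fold change 1.04, SE 0.21, adjusted p = 0.017, 2.05-fold, and 0.43, 1.56 and 1.12 within the runs). The ePRBoe call held with any 1 library left out, and the ePRAoe call was lost without ePRAoe replicate 3 (0.78, 0.082) or Wnt7acre replicate 2 (0.78, 0.0813).

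Cdh24 had 3.398, 2.54 and 2.17 FPKM in the ePRBoe libraries, 2.51, 0.864 and 2.51 FPKM in the ePRAoe libraries and 2.898, 11.1 and 5.46 FPKM in the Wnt7acre libraries. The ePRAoe libraries of this cadherin lay below the controls, and ePRBoe overlapped them. Cdh24 fell in ePRAoe (log2 fold change -1.24, SE 0.33, adjusted p = 0.0424), but the within-run differences ran unevenly (-1.79, -1.78 and -0.15), and ePRBoe was not called (-0.54, adjusted p = 0.454). Without the run term the adjusted p was 0.0771 and with no filter on low values 0.0536, and the call was also lost without any 1 of the ePRBoe libraries (0.0616 to 0.0707) or without replicate 2 or 3 of ePRAoe or of Wnt7acre (0.194 to 0.198). Nectins are adhesion molecules that pair across cells and bind afadin. Nectin4 had 22.4, 14.8 and 12.4 FPKM in the ePRBoe libraries, 15.7, 11.2 and 13.3 FPKM in the ePRAoe libraries and 21.7, 23.7 and 24.8 FPKM in the Wnt7acre libraries. The ePRAoe libraries of Nectin4 lay below the controls and missed the threshold (-0.77, adjusted p = 0.0564). Nectin4 passed in ePRAoe without ePRBoe replicate 1 (0.0336), ePRAoe replicate 1 (0.0491) or Wnt7acre replicate 1 (0.0491), without the run term (0.0437) and with median-of-ratios factors (0.0494). Nectin2 averaged 57.9 ± 8.18 FPKM in ePRBoe, 52.7 ± 6.23 FPKM in ePRAoe and 66.8 ± 14.1 FPKM in Wnt7acre and was not called.

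Ctnna1 (alpha-catenin, which links cadherins to actin) averaged 81.4 ± 3.71 FPKM in ePRBoe, 89.2 ± 7.84 FPKM in ePRAoe and 107 ± 7.74 FPKM in Wnt7acre. Both genotypes lay below the controls without overlap, and neither was called (ePRBoe -0.40, adjusted p = 0.176, and ePRAoe -0.26, adjusted p = 0.223). Ctnnd1 (p120-catenin, which keeps cadherins at the membrane) averaged 77.01 ± 1.91 FPKM in ePRBoe, 82.3 ± 3.14 FPKM in ePRAoe and 79.4 ± 6.41 FPKM in Wnt7acre and was not called. A gene on the same strand, Gm28635, shares 61.2% of its exonic length, so that its reads could be split. Nectin3 and Cdh13 were not called. Nectin1, Ctnnd2, Cdh2, Cdh3, Cdh4, Cdh6, Cdh10, Cdh15, Cdh16 and Cdh20 were not tested, and the highest value among them was 2.23 FPKM, for Cdh10 in ePRAoe replicate 3. Of these, Cdh2, the neural cadherin of mesenchymal cells, had 0.8, 0.738 and 1.005 FPKM in ePRBoe, 0.55, 0.596 and 0.706 FPKM in ePRAoe and 0.047, 0.486 and 0.345 FPKM in Wnt7acre libraries.

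Most desmosome genes stood lower in the overexpressing genotypes than in the controls. Of 9 tested genes, 0 rose and 1 fell in ePRBoe (11.1%, against 8.89% of all genes). In ePRAoe 0 rose and 3 fell (33.3%, against 16.2%). Fold changes were negative for 8 of the 9 in each genotype, with a median of -0.33 in ePRBoe and -0.37 in ePRAoe, beside 0.10 and -0.03 over all genes tested. For 8 of the 9 all ePRBoe libraries lay below all controls, against 16.3% of all genes, and for 3 of the 9 all ePRAoe libraries did, against 16.2%. Median-of-ratios factors left these counts at 8 and 3, and quantile normalization gave 7 and 3. The counts compare libraries without the run term, as do the shares of all genes. Of the controls, only Wnt7acre replicate 3 shared the run of the ePRBoe libraries, so run and genotype are mixed in the ePRBoe count. With the run term Pkp4, among the 8, had -0.01 in ePRBoe (adjusted p = 0.983). The summed level of the 12 genes was 172 ± 8.06 FPKM in ePRBoe, 183 ± 9.21 FPKM in ePRAoe and 233 ± 14.3 FPKM in Wnt7acre (SD, n = 3 each).

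Dsc2 (desmocollin 2) is a desmosomal cadherin. Dsc2 had 3.98, 3.19 and 1.35 FPKM in the ePRBoe libraries, 2.56, 3.88 and 3.52 FPKM in the ePRAoe libraries and 5.96, 12.7 and 10.04 FPKM in the Wnt7acre libraries. Every overexpressing library was below every control. Dsc2 fell in ePRBoe (log2 fold change -1.63, SE 0.36, adjusted p = 0.0323, and -1.59 within run 1) and in ePRAoe (log2 fold change -1.25, SE 0.29, adjusted p = 0.027, and -1.18, -1.60 and -0.97 within the runs). Plakoglobin (Jup) binds the tails of desmosomal cadherins. Jup had 54.3, 44.2 and 49.2 FPKM in the ePRBoe libraries, 47.3, 40.03 and 42.3 FPKM in the ePRAoe libraries and 59.8, 73.7 and 64.2 FPKM in the Wnt7acre libraries. Both genotypes lay below the controls without overlap, and Jup fell in ePRAoe (log2 fold change -0.60, SE 0.14, adjusted p = 0.029, and -0.67, -0.79 and -0.33 within the runs) but missed the threshold in ePRBoe (-0.34, adjusted p = 0.262). Plakophilin 3 (Pkp3) is a protein of the desmosomal plaque. Pkp3 had 14.2, 12.2 and 13.7 FPKM in the ePRBoe libraries, 12.2, 10.2 and 11.6 FPKM in the ePRAoe libraries and 16.2, 19.6 and 16.7 FPKM in the Wnt7acre libraries. ePRAoe was lowest and Wnt7acre highest, with no overlap between any pair of groups. Pkp3 fell in ePRAoe (log2 fold change -0.58, SE 0.13, adjusted p = 0.0254, and -0.66, -0.71 and -0.38 within the runs) and had no call in ePRBoe (-0.27, adjusted p = 0.356).

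Dsg2 (desmoglein 2) was the highest desmosomal cadherin in every library. Dsg2 had 35.1, 34.99 and 35.2 FPKM in the ePRBoe libraries, 36.1, 43.8 and 36.1 FPKM in the ePRAoe libraries and 40.9, 46.3 and 42.2 FPKM in the Wnt7acre libraries. The ePRBoe libraries lay close together below the controls, without a call (ePRBoe -0.37, adjusted p = 0.173, and ePRAoe -0.16, adjusted p = 0.417). Dsp (desmoplakin, which anchors keratin) averaged 28.96 ± 0.795 FPKM in ePRBoe, 26.7 ± 5.45 FPKM in ePRAoe and 34.3 ± 2.73 FPKM in Wnt7acre. Pkp4 averaged 24.5 ± 1.25 FPKM in ePRBoe, 30.03 ± 14.3 FPKM in ePRAoe and 36.03 ± 7.68 FPKM in Wnt7acre, and Pkp2, a plaque protein, averaged 11.8 ± 3.07 FPKM in ePRBoe, 15.2 ± 2.29 FPKM in ePRAoe and 18.2 ± 2.24 FPKM in Wnt7acre. Dsp, Pkp2 and Pkp4 were not called in any comparison. Dsg3 had 4.65, 5.31 and 2.61 FPKM in the ePRBoe libraries, 1.12, 1.304 and 6.87 FPKM in the ePRAoe libraries and 9.83, 5.55 and 6.36 FPKM in the Wnt7acre libraries. Dsg3, known from stratified epithelia, was low in ePRAoe replicate 1 and ePRAoe replicate 2 but not in ePRAoe replicate 3 and was not called (ePRAoe -1.25, adjusted p = 0.107).

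Dsg4, a desmoglein of hair, ran the other way. Dsg4 had 0.787, 3.15 and 0.809 FPKM in the ePRBoe libraries, 0.175, 28.3 and 6.91 FPKM in the ePRAoe libraries and 0.044 FPKM in each Wnt7acre library. No overexpressing library overlapped the controls, and the ePRAoe libraries differed widely from each other. In low members with values on multiples of 1 step, that step was 0.0214 to 0.0765 FPKM. Values of 0.044 and 0.175 FPKM therefore stand for few reads, and the non-overlap of ePRAoe replicate 1 rests on them. The ePRAoe difference missed the threshold (log2 fold change 2.63, SE 0.77, adjusted p = 0.0555, and 4.81, 2.92 and 0.17 within the runs). It passed without ePRAoe replicate 1 (3.87, 0.00606) or Wnt7acre replicate 1 (3.87, 0.00605), and with a pseudocount of 0.5 FPKM (0.0481). In ePRBoe the difference fitted with the run term was 0.10, 95% interval -2.08 to 2.28, adjusted p = 0.963, whereas the direct difference within run 1, which held all ePRBoe libraries, was 1.19. Dsc1, Dsc3 and Pkp1 were not tested, with highest values of 0.167, 0.37 and 1.29 FPKM. Dsc3 was listed at 0 in 2 ePRBoe and all 3 ePRAoe libraries and had 0.37, 0.114 and 0.199 FPKM in the Wnt7acre libraries.

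**Figure D4:**
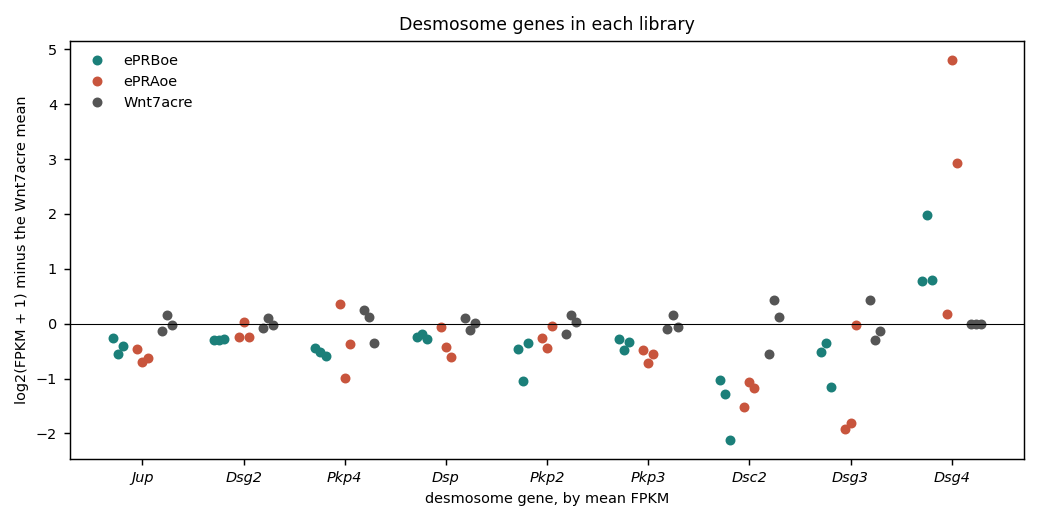
Log2(FPKM + 1) of the 9 tested desmosome genes in each library (points) minus the mean of the 3 Wnt7acre libraries, with genes ordered by mean FPKM. For 8 of the 9 genes all 3 ePRBoe points lie below all Wnt7acre points, and Dsg4 lies above them with a wide spread in ePRAoe. The points are not adjusted for the run.

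The ePRAoe calls of desmosome genes were each lost without replicate 2 or 3 of ePRAoe or of Wnt7acre. The adjusted p was then 0.105 to 0.138 for Dsc2, 0.118 to 0.124 for Jup and 0.104 to 0.108 for Pkp3. Without ePRBoe replicate 3, Jup (0.0569) and Pkp3 (0.0522) were lost, and without ePRBoe replicate 1, Pkp3 (0.0509). In ePRBoe, Dsc2 was lost without ePRBoe replicate 2 (0.0711), ePRAoe replicate 2 (0.113), ePRAoe replicate 3 (0.0612), Wnt7acre replicate 2 (0.0621) or Wnt7acre replicate 3 (0.196).

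Among gap junction genes, Gja1 (connexin 43) rose in both genotypes, Gjc1 (connexin 45) rose in ePRBoe, and Gjb1 (connexin 32) fell in ePRAoe. Of 6 tested genes, 2 rose and 0 fell in ePRBoe (33.3%, against 8.89% of all genes). In ePRAoe 1 rose and 1 fell (33.3%, against 16.2%). The median log2 fold change was 0.72 in ePRBoe and 0.41 in ePRAoe. The 10 genes summed to 62.3 ± 20.9 FPKM in ePRBoe, 50 ± 35.1 FPKM in ePRAoe and 83.2 ± 28.7 FPKM in Wnt7acre (SD, n = 3 each).

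Gja1 is the connexin of the decidualizing stroma. Gja1 had 20.1, 15.5 and 13.1 FPKM in the ePRBoe libraries, 10.5, 4.58 and 13.9 FPKM in the ePRAoe libraries and 2.62, 2.86 and 3.23 FPKM in the Wnt7acre libraries (ENSMUSG00000050953.10, chromosome 10, 56377330 to 56402513, forward strand, mm10). No overexpressing library overlapped the controls. Gja1 rose in ePRBoe (log2 fold change 2.48, SE 0.37, adjusted p = 0.0103, 5.56-fold, and 2.01 within run 1) and in ePRAoe (log2 fold change 1.34, SE 0.30, adjusted p = 0.0239, 2.53-fold, and 0.40, 1.95 and 1.67 within the runs). Of the connexin FPKM, Gja1 made up 30.5%, 38.9% and 16.1% in the ePRBoe libraries, 31.3%, 17.5% and 15.4% in the ePRAoe libraries and 2.55%, 2.96% and 6.43% in the Wnt7acre libraries. The ePRBoe call held with any 1 library left out. The ePRAoe call was lost without ePRAoe replicate 1 (0.0677), ePRAoe replicate 3 (0.129), Wnt7acre replicate 1 (0.0662) or Wnt7acre replicate 2 (0.125).

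Gjc1 had 2.54, 3.68 and 3.73 FPKM in the ePRBoe libraries, 1.36, 0.925 and 2.37 FPKM in the ePRAoe libraries and 0.745, 0.643 and 0.746 FPKM in the Wnt7acre libraries. The controls lay below both genotypes, and ePRBoe lay above ePRAoe. Gjc1, known from heart and vessel walls, rose in ePRBoe (log2 fold change 1.49, SE 0.28, adjusted p = 0.021, and 1.29 within run 1) and was not called in ePRAoe (0.54, adjusted p = 0.157). The ePRBoe call was lost without ePRBoe replicate 2 (0.0696), ePRBoe replicate 3 (0.0678), ePRAoe replicate 2 (0.0815) or Wnt7acre replicate 3 (0.0819).

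Gjb1 is a connexin of liver and other secretory epithelia. Gjb1 had 3.697, 5.13 and 5.08 FPKM in the ePRBoe libraries, 0.925, 0.588 and 1.34 FPKM in the ePRAoe libraries and 3.32, 15.2 and 8.11 FPKM in the Wnt7acre libraries (ENSMUSG00000047797.14, chromosome X, 101376378 to 101385629, forward strand, mm10). All ePRAoe libraries lay below all others, and the ePRBoe libraries lay within the control range. Gjb1 fell in ePRAoe (log2 fold change -2.16, SE 0.31, adjusted p = 0.00526, and -2.52, -2.79 and -1.17 within the runs) and kept that call with any 1 library left out. It was not called in ePRBoe (-0.52, 95% interval -1.40 to 0.36, adjusted p = 0.437). Between ePRBoe and ePRAoe the difference did not pass over all genes (1.64, 95% interval 0.76 to 2.51, adjusted p = 0.106), but it passed without ePRAoe replicate 1 (1.88, 0.0212) or Wnt7acre replicate 1 (1.88, 0.0226).

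The outermost of the 4 annotated Gjb1 starts are shown because their promoters hold the half-site AGAACA, in capitals as it reads on the printed strand. They lie at chrX:101376126-101376425 and chrX:101383482-101383781 on the forward strand (RefSeq, GRCm38.p6).
Gjb1 first start: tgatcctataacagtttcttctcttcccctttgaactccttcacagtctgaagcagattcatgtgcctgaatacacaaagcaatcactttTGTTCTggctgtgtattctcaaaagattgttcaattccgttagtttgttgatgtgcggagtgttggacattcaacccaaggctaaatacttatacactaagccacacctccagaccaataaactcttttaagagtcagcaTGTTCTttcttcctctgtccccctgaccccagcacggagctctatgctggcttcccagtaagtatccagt
Gjb1 last start: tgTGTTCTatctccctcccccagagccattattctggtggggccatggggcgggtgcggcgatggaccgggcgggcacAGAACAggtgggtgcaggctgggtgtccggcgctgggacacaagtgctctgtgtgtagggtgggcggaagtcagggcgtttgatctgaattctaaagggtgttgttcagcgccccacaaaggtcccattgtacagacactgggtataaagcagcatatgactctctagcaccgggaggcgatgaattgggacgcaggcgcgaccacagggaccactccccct
Each holds 2 matches, and 19.0% of all promoters of this length hold at least 1. Of the 13 called members, 5 had promoters in the table, and 3 of their 9 promoters held the half-site. These were the shown promoters of Gjb1 and that of Cdh24, and Gjb1 alone has 4 of the 9, so the promoters are not separate genes. A match is a run of letters and no measure of receptor binding.

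Gjb2 (connexin 26), a connexin of the uterine epithelium around implantation, was the highest connexin in every Wnt7acre library and varied widely in all groups. Gjb2 had 29.9, 8.44 and 51.6 FPKM in the ePRBoe libraries, 7.43, 13.03 and 59.9 FPKM in the ePRAoe libraries and 86.9, 74.7 and 33.7 FPKM in the Wnt7acre libraries. The groups overlapped, and no call was made (ePRBoe -0.66, 95% interval -2.69 to 1.37, adjusted p = 0.686, and ePRAoe -1.67, 95% interval -3.32 to -0.01, adjusted p = 0.154). Gja4 (connexin 37), known from endothelium, averaged 2.34 ± 1.62 FPKM in ePRBoe, 1.23 ± 1.11 FPKM in ePRAoe and 0.706 ± 0.406 FPKM in Wnt7acre and was not called (ePRBoe 1.09, adjusted p = 0.282). Gja3 and Gjb5 were not tested, and the highest value of these connexins was 2.52 FPKM, for Gja3 in ePRAoe replicate 1.

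Cdh11, Gja1, Jam3 and Gjc1, which rose, were lowest in Wnt7acre, where stroma markers were also lowest. The summed stroma markers of single libraries were 414, 509 and 556 FPKM in ePRBoe, 230, 255 and 395 FPKM in ePRAoe and 98.1, 114 and 130 FPKM in Wnt7acre. The ePRAoe library with the most stroma marker FPKM, replicate 3, also had the highest Cdh11, Gja1, Jam3 and Gjc1 of its group. Within ePRBoe the order of Cdh11 and Gja1 was the reverse of that of the stroma markers, and both were highest in ePRBoe replicate 1, the ePRBoe library with the least stroma marker FPKM. Gjc1 followed the order of the stroma markers within ePRBoe, and Jam3 was lowest in ePRBoe replicate 1. Within Wnt7acre, Cdh11 and Gja1 followed the order of the stroma markers, whereas Jam3 and Gjc1 did not. Jam2 was highest of all in ePRAoe replicate 2. The 10 endothelium markers summed to 51.2 to 78.8 FPKM in ePRBoe, 16.5 to 35.2 FPKM in ePRAoe and 13.99 to 21.2 FPKM in Wnt7acre libraries, and 2 of 8 tested rose in ePRBoe. The 12 immune cell markers summed to 382 to 455 FPKM in ePRBoe, 128 to 163 FPKM in ePRAoe and 183 to 389.6 FPKM in Wnt7acre libraries, with 6 risen in ePRBoe and 4 fallen in ePRAoe against Wnt7acre. The 6 smooth muscle markers summed to 33.01 to 81.1 FPKM in ePRBoe, 12.2 to 22.9 FPKM in ePRAoe and 8.42 to 19.2 FPKM in Wnt7acre libraries, with up to 2 of the 6 at 0 in a library. In ePRBoe the smooth muscle and endothelium sums were highest in replicate 2, at 81.1 and 78.8 FPKM. The other ePRBoe libraries had 33.1 and 33.01 FPKM of the former and 52.1 and 51.2 FPKM of the latter. Gja4 was also highest in ePRBoe replicate 2 (3.97 FPKM). The 8 gland markers summed to 239 to 302 FPKM in ePRBoe, 296 to 568 FPKM in ePRAoe and 76.5 to 288 FPKM in Wnt7acre libraries. Calb1 was the largest part of this sum in every library except Wnt7acre replicate 2, where Spink1 was. Of 5 tested gland markers, 0 were called in ePRBoe, and 2 rose and 1 fell in ePRAoe. Calb1 (1.72, adjusted p = 0.0412) and Aldh1a1 (1.58, adjusted p = 0.00616) rose there, and Spink1 fell (-3.97, adjusted p = 0.0058). Myoepithelial or basal markers were Trp63, Krt5 and Krt14. Trp63 had 3.58, 4.47 and 8.75 FPKM in ePRBoe, 1.19, 18.2 and 14.5 FPKM in ePRAoe and 1.61, 0.326 and 0.841 FPKM in Wnt7acre libraries. It was not called (adjusted p = 0.433 in ePRBoe and 0.0671 in ePRAoe). Its order was that of Dsg4 within ePRAoe but not within ePRBoe. Krt5 and Krt14 were not tested and were highest in Wnt7acre replicate 1 (23.95 and 2.52 FPKM), where Dsg3, Dsc3 and Pkp1 were highest too. The part of these other cells in the junction gene differences was not tested.

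**Figure D5:**
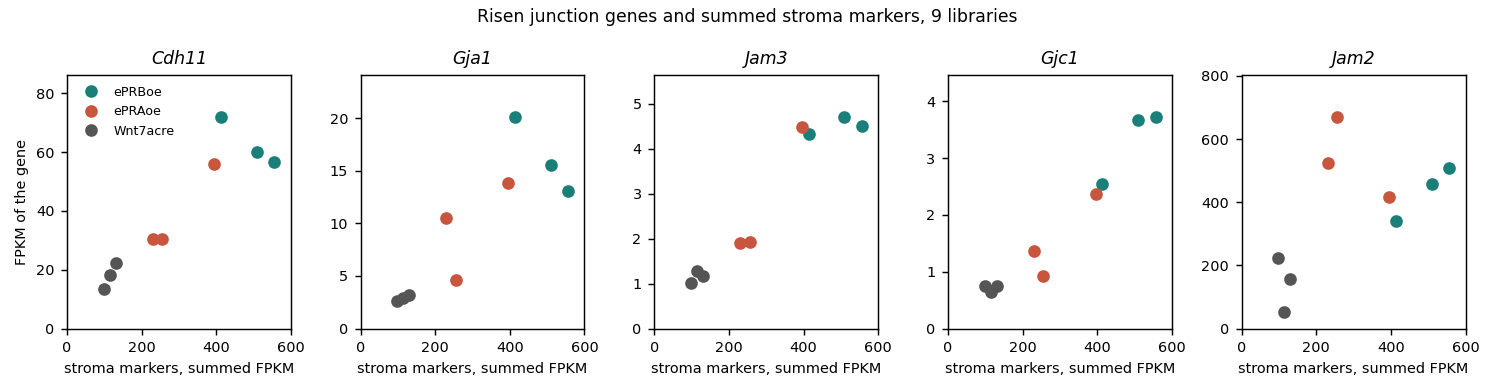
FPKM of Cdh11, Gja1, Jam3, Gjc1 and Jam2 against the summed FPKM of 14 stroma markers, 1 point per library, on linear axes from 0. For Cdh11, Gja1, Jam3 and Gjc1 the ePRAoe library at 395 FPKM of stroma markers lies above the other ePRAoe libraries and near the ePRBoe libraries at 414 to 556, and for Jam2 it lies below the other ePRAoe libraries.

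No polarity gene was called, although some passed under other settings. All 10 were tested, and limma called 0 in ePRBoe and 0 in ePRAoe against Wnt7acre, with 1 and 3 at an unadjusted p under 0.05. Of all genes, 8.89% were called in ePRBoe and 16.2% in ePRAoe. Fold changes ran from -0.89 to 0.62 in ePRBoe and from -0.64 to 0.62 in ePRAoe on the log2 scale, with medians of 0.05 and -0.24. Without ePRAoe replicate 1 or Wnt7acre replicate 1, 1 rose and 3 fell in ePRAoe and 1 fell in ePRBoe, and without the run term or with median-of-ratios factors 1 fell in ePRBoe. Prkci, the atypical protein kinase C of the PAR complex, averaged 43.8 ± 4.11 FPKM in ePRBoe, 53.1 ± 3.17 FPKM in ePRAoe and 53.3 ± 9.32 FPKM in Wnt7acre. Crb3, the epithelial Crumbs protein, averaged 38.4 ± 2.397 FPKM in ePRBoe, 30.4 ± 5.32 FPKM in ePRAoe and 38.9 ± 5.78 FPKM in Wnt7acre, and Llgl1, a basolateral partner of Scrib, averaged 33.2 ± 7.02 FPKM in ePRBoe, 24.5 ± 5.01 FPKM in ePRAoe and 26.1 ± 3.49 FPKM in Wnt7acre.

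Pard6b, an epithelial PAR6 protein, came closest to a call. Pard6b had 20.99, 14.3 and 13.6 FPKM in the ePRBoe libraries, 19.2, 16.4 and 18.99 FPKM in the ePRAoe libraries and 21.5, 31.1 and 35.6 FPKM in the Wnt7acre libraries. All overexpressing libraries lay below the controls, by a narrow gap, and both genotypes missed the threshold (ePRBoe -0.89, 95% interval -1.52 to -0.26, adjusted p = 0.0866, and ePRAoe -0.64, 95% interval -1.15 to -0.13, adjusted p = 0.091). Without ePRAoe replicate 1 both passed (0.0406 in ePRBoe, 0.0376 in ePRAoe), and likewise without Wnt7acre replicate 1 (0.0405 and 0.0374). In ePRBoe, Pard6b also passed without the run term (0.0362) and with median-of-ratios factors (0.0437). Pard6g had 4.93, 3.41 and 5.88 FPKM in the ePRBoe libraries, 1.69, 5.998 and 4.28 FPKM in the ePRAoe libraries and 2.13, 1.96 and 1.96 FPKM in the Wnt7acre libraries. Pard6g was higher in each ePRBoe library than in each control, without a call (0.62, adjusted p = 0.336). Pard3b averaged 2.07 ± 0.398 FPKM in ePRBoe, 1.05 ± 0.389 FPKM in ePRAoe and 1.49 ± 0.576 FPKM in Wnt7acre, and it, Pard3 (the PAR3 scaffold), Pard6a, Llgl2 and Scrib were not called.

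The comparison of ePRBoe with ePRAoe sets the receptor isoforms against each other, but the libraries also differed in markers of other cells and in run. All 12 immune cell markers were higher in every ePRBoe than in every ePRAoe library, and 6 of the 40 genes called were among them. Fold changes were positive for all 14 stroma and all 8 tested endothelium markers, with 0 called. Only ePRAoe replicate 2 shared the run of the ePRBoe libraries. The part of other cells in these differences was not tested. Limma called 0 of the 54 members, against 0.324% of all genes (0.316% higher and 0.00810% lower), with 15 of the 54 at an unadjusted p under 0.05. The median was 0.25 for the members and 0.15 for all genes tested. The libraries of both genotypes did not overlap for 15 members (22.6% of all genes), with 8 higher in ePRBoe (16.8%) and 7 lower (5.80%). Higher in every ePRBoe library were Cdh11, Cldn4, Cldn6, Gjb1, Gjc1, Marveld1, Pard3b and Pkp3. Among those lower in every ePRBoe library were Ctnnd1, Dsg2, Marveld2, Ocln, Prkci and Tjp1.

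By size, the widest differences between ePRBoe and ePRAoe were those of Dsg4 (-2.54, 95% interval -4.72 to -0.36, adjusted p = 0.214), Cldn10 (1.90, 95% interval 0.55 to 3.25, adjusted p = 0.163) and Gjb1. Dsg4 passed without ePRAoe replicate 1 (-3.15, 0.044) or Wnt7acre replicate 1 (-3.15, 0.0437). For genes called in both genotypes the differences were 0.71, 95% interval 0.10 to 1.31, adjusted p = 0.211 for Cdh11, and 1.14, 95% interval 0.28 to 2.00, adjusted p = 0.176 for Gja1. They were 0.76, 95% interval 0.18 to 1.34, adjusted p = 0.182 for Jam3, 0.32, 95% interval -0.23 to 0.88, adjusted p = 0.489 for Cldn8 and -0.38, 95% interval -1.21 to 0.45, adjusted p = 0.59 for Dsc2. Jam2 differed by -0.64, 95% interval -1.53 to 0.26, adjusted p = 0.399. With intervals of this width the missed threshold does not show that the isoforms acted alike.

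Of 47 tested partners of these junctions outside the membership, 2 rose and 2 fell in ePRBoe (8.51%, against 8.89% of all genes), and 5 rose and 1 fell in ePRAoe (12.8%, against 16.2%). Their median log2 fold change was -0.10 in ePRBoe and -0.19 in ePRAoe. The list was chosen with earlier results of these data known, so its shares are no test against all genes. Perp, a tetraspan protein of desmosomes, averaged 68.6 ± 11.02 FPKM in ePRBoe, 68.98 ± 16.2 FPKM in ePRAoe and 146 ± 4.09 FPKM in Wnt7acre. It fell in ePRBoe (log2 fold change -1.21, SE 0.22, adjusted p = 0.0172) and in ePRAoe (log2 fold change -1.10, SE 0.18, adjusted p = 0.00741). Ppl, periplakin, which links desmosomes to keratin, went the other way and averaged 67.3 ± 6.11 FPKM in ePRBoe, 62.5 ± 10.6 FPKM in ePRAoe and 42.03 ± 2.802 FPKM in Wnt7acre. It rose in ePRAoe (0.55, adjusted p = 0.0306) and missed the threshold in ePRBoe (0.55, adjusted p = 0.0788). Shroom3, which draws contractile actin to the apical junction, rose in ePRBoe (log2 fold change 0.95, SE 0.14, adjusted p = 0.0109) and in ePRAoe (log2 fold change 0.82, SE 0.12, adjusted p = 0.00525). In ePRBoe, Amotl1, an angiomotin at tight junctions, rose (2.40, adjusted p = 0.00515) and Cxadr, an adhesion receptor of the tight junction, fell (-0.87, adjusted p = 0.0239). In ePRAoe neither was called (Amotl1 0.66, adjusted p = 0.0791, and Cxadr -0.32, adjusted p = 0.163). Ildr1, of tricellular junctions, Celsr2, a planar polarity cadherin, and Dlg3, a scaffold, rose in ePRAoe (Ildr1 1.09, adjusted p = 0.0157, Celsr2 0.84, adjusted p = 0.0153, and Dlg3 0.57, adjusted p = 0.028). None of these passed in ePRBoe (Ildr1 0.37, adjusted p = 0.441, Celsr2 0.47, adjusted p = 0.196, and Dlg3 0.49, adjusted p = 0.114).

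Of 17 tested factors of epithelial or mesenchymal identity, 3 rose and 2 fell in ePRBoe (29.4%, against 8.89% of all genes), and 4 rose and 2 fell in ePRAoe (35.3%, against 16.2%). Their median was 1.00 in ePRBoe and 0.52 in ePRAoe. This list too was chosen with earlier results of these data known, so its shares are no test against all genes. Snai1, a repressor of epithelial adhesion genes, averaged 6.29 ± 0.682 FPKM in ePRBoe, 4.04 ± 1.45 FPKM in ePRAoe and 0.924 ± 0.312 FPKM in Wnt7acre. It rose in ePRBoe (log2 fold change 2.28, SE 0.22, adjusted p = 0.00317) and in ePRAoe (log2 fold change 1.36, SE 0.18, adjusted p = 0.00413). Grhl1, a grainyhead factor that drives desmosomal cadherin genes in skin, averaged 2.29 ± 0.921 FPKM in ePRBoe, 2.204 ± 1.22 FPKM in ePRAoe and 8.7 ± 4.14 FPKM in Wnt7acre. It fell in ePRBoe (log2 fold change -1.25, SE 0.28, adjusted p = 0.0329) and in ePRAoe (log2 fold change -1.58, SE 0.22, adjusted p = 0.00521). Elf3, an epithelial factor, rose in ePRBoe (1.01, adjusted p = 0.0158) and in ePRAoe (0.74, adjusted p = 0.0144). Twist2, a mesenchymal factor, rose in ePRBoe (1.63, adjusted p = 0.0328) and in ePRAoe (1.24, adjusted p = 0.0279). Esrp1, an epithelial splicing factor, rose in ePRAoe (0.61, adjusted p = 0.0138) and was not called in ePRBoe (-0.04, adjusted p = 0.881), and its relative Esrp2 fell in ePRAoe (-0.84, adjusted p = 0.0434) and was not called in ePRBoe (-0.65, adjusted p = 0.19). Klf5, an epithelial factor, fell in ePRBoe (-0.75, adjusted p = 0.033) and was not called in ePRAoe (-0.42, adjusted p = 0.0742). Stroma markers were higher in both genotypes than in Wnt7acre, and their part in these values was not tested.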

How the data were processed

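Laser-captured luminal epithelium of 3 genotypes, 3 libraries each, was measured by RNA-seq. The authors' deposited table holds FPKM per gene symbol and library, per the file headers. Per the submitters' processing notes, STAR 2.5.2b, featureCounts 1.5.0-p1 of Subread, edgeR 3.28.0, limma 3.42.2 and mm10 were used. The sources used here give no annotation, strand setting or gene lengths. The table holds no counts and depth is not stated, but of 860 genes under 0.6 FPKM with at least 6 libraries above 0, 45.8% lay on multiples of 1 step common to all libraries (tolerance 0.0006 FPKM), so low values stand for few reads.

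Genes reaching 1 FPKM in 3 or more libraries (12347) were kept, and their log2(FPKM + 1) was fitted with limma 3.58.1 (R 4.3.3), with genotype and sequencing run (3 runs, from the labels) as terms and trended variances, on 4 residual and 3.64 prior degrees of freedom. Tests were two-sided with Benjamini-Hochberg adjustment over all tested genes, and the procedure was tested on simulated data. Gene positions and overlaps were taken from GENCODE M21 (mm10), which held all 77 symbols. No 2 libraries held identical values.

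Named were the called members, Cldn3, Cldn7, Cldn8 and Cldn10, the 4 members with the highest mean FPKM in each class, the uncalled member with the largest fold in each class and comparison, and up to 4 called genes of each further list. Others are named after their values were seen, to account for the members and for the calls of the lists. Results of 4 members are not reported here, although counts and sums include them. The members and lists were chosen with earlier results of these data known. Alternatives were a pseudocount of 0.5, no filter, a mean of at least 5 FPKM, no run term, a replicate block, 2 other scalings and each of the 9 libraries left out.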

Additional observations from a re-analysis of the deposited data

How the results depend on the processing

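Counts of called genes moved most with the libraries left out. Leaving out each library in turn gave 2 to 10 called members in ePRBoe against Wnt7acre, 5 to 20 in ePRAoe against Wnt7acre and 0 to 2 between ePRBoe and ePRAoe. Over all genes these ranges were 232 to 1602, 747 to 2719 and 0 to 546. Of the 6 and 12 called members in ePRBoe and ePRAoe, 2 and 3 passed under every setting. With a mean of at least 5 FPKM, ePRBoe against Wnt7acre had 3 called members and 653 called genes among the fewer genes tested, and without the run term it had 10 and 1786. The replicate block in place of the run term left 6 called members (3 higher, 3 lower) and 1113 genes in ePRAoe against Wnt7acre and 4 genes between ePRBoe and ePRAoe. Among the ePRAoe calls lost with the block were those of Dsc2 (adjusted p = 0.0554), Jup (0.0526), Pkp3 (0.0553), Jam3 (0.0994) and Cdh24 (0.126). The numbers were not taken as pairs, since 2 of 9 same-numbered pairs of libraries had deviations correlated above 0.1. Between ePRBoe and ePRAoe the count of genes was 19 with no filter, 7 without the run term, 22 with median-of-ratios factors and 16 with quantile normalization. The causes were not tested. Those scalings moved the median of all genes by -0.13 and -0.12 in ePRBoe against Wnt7acre and by -0.17 and -0.18 between ePRBoe and ePRAoe. Some uncalled fold changes turned sign when single libraries were left out. The ranges then were -0.82 to 0.0099 for Cdh24, -0.094 to 0.42 for Cldn3 and -0.42 to 0.72 for Cldn7 in ePRBoe, and -0.089 to 0.31 for Cldn3 in ePRAoe. Between ePRBoe and ePRAoe they were -0.0054 to 0.51 for Cldn3, -0.53 to 0.62 for Cldn7 and -0.020 to 0.90 for Pard3b. In that comparison Cldn3 also turned with median-of-ratios factors (-0.030) and Cldn8 with quantile normalization (-0.00025). Low members are limited by depth: 1 step of their values was worth 0.0214 to 0.0765 FPKM in the 10 members where one was found.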

Other observations

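The rows of the deposited table do not all follow the alphabet. Of 15158 symbols, 10919 stood in alphabetical order and 4239 outside it. Among the junction and polarity genes 23 of 77 stood outside it, and these included all 13 genes called in at least 1 comparison. Whether the names still belonged to their values was checked with the length that the step of low genes implies. Across genes this length and the annotated exonic one were related in rows outside the order (Spearman's rho 0.677, 231 genes) and in rows within it (0.616, 1277 genes). Such a relation across genes does not show that every name is in place. None of the 13 called members was among the 22 low members examined for a step, so their names were not checked singly. Genes are not independent replicates, so no p-value was drawn.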
